A study of Arabidopsis thaliana with 12 samples.

Results

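The 39 nuclear genes described here encode the light-harvesting proteins of both photosystems, photosystem subunits, plastocyanin and subunits of the chloroplast ATP synthase of Arabidopsis thaliana. They were chosen by gene identifier from named families (LHCB, LHCA, PSB, PSA, PETE and ATP), and all 39 were present in a table of 30926 genes. By role they comprise 15 antenna genes of photosystem II, 4 antenna genes of photosystem I, 7 subunits of photosystem II, 9 subunits of photosystem I, 2 plastocyanins and 2 ATP synthase subunits. Small RNA below 200 nt was sequenced from the aerial parts of 18-day-old greenhouse plants of 4 genotypes with 3 libraries each. The triple mutant rdr6-11 ein5-1 ski2-3 carries lesions in RDR6, EIN5 and SKI2. The double mutant ein5-1 ski2-3 lacks the 5′ to 3′ cytoplasmic exonuclease EIN5, also called XRN4, and the exosome helicase SKI2, and has a wild-type RDR6. The single mutant rdr6-11 is deficient only in RDR6, the RNA-dependent RNA polymerase that makes double-stranded RNA for secondary siRNAs, and Col-0 is the wild type. The comparisons ask how small RNA from these genes depends on cytoplasmic mRNA decay and on RDR6.

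Light-harvesting chlorophyll a/b proteins surround the photosystem cores in the thylakoid membrane and pass excitation energy to the reaction centres. LHCB1 and LHCB2 form the mobile trimers of light-harvesting complex II, the most abundant membrane proteins of green leaves, and each is encoded by several near-identical genes. Plastocyanin carries electrons from cytochrome b6f to photosystem I, and the ATP synthase uses the proton gradient that electron transport builds. The mRNAs of these genes are among the most abundant nuclear transcripts of leaves, and a small RNA library can hold fragments of mRNA turnover as well as siRNAs. In the absence of decay from both ends, uncapped or truncated mRNAs can serve as templates for RDR6.

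The copies of LHCB1 and LHCB2 are shown first because their similarity decides what a count per gene can say. In the stretch of coding sequence that was most conserved across the family, LHCB1.1, LHCB1.2 and LHCB1.3 were identical over 60 bases. LHCB1.4 had 2 differences from LHCB1.1, LHCB1.5 had 1, and LHCB2.1, LHCB2.2 and LHCB2.3 had 9, 8 and 10. LHCB3, the third subunit of the trimers, had 4. Capitals mark each base that differs from LHCB1.1, and all sequences are coding strand, 5′ to 3′, from RefSeq (TAIR10.1).
LHCB1.1: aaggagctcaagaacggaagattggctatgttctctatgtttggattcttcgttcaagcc
LHCB1.2: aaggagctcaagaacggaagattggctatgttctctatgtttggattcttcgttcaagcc
LHCB1.3: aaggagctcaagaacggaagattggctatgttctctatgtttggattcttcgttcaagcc
LHCB1.4: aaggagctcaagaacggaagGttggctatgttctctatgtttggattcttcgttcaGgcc
LHCB1.5: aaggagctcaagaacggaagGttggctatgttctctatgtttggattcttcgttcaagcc
LHCB2.1: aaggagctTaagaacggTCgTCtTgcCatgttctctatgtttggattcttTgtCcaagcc
LHCB2.2: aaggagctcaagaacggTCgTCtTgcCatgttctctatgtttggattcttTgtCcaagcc
LHCB2.3: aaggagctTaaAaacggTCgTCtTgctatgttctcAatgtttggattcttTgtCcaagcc
LHCB3: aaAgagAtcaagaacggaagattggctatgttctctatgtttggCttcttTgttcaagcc

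The stretch in which the 5 LHCB1 copies differed most lay nearer the start of the coding sequence, from base 220 to base 279 in LHCB1.1. There LHCB1.2 and LHCB1.3 each had 6 differences from LHCB1.1, LHCB1.4 had 10 and LHCB1.5 had 7. LHCB2.1 and LHCB2.2, whose differences played no part in the choice of this stretch, were identical to each other there. Capitals again mark differences from LHCB1.1.
LHCB1.1: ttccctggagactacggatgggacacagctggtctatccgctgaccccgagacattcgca
LHCB1.2: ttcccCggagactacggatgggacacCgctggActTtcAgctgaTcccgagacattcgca
LHCB1.3: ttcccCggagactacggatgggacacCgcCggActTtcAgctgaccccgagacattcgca
LHCB1.4: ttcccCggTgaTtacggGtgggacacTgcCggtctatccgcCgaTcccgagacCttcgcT
LHCB1.5: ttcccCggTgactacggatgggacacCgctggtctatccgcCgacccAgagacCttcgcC
LHCB2.1: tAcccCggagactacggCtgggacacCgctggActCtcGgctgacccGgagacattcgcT
LHCB2.2: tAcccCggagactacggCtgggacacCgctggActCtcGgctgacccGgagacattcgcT
LHCB2.3: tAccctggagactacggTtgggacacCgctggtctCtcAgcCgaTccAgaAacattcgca

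Over whole coding sequences, LHCB1.1, LHCB1.2 and LHCB1.3 were 95.6% to 96.4% identical, LHCB1.4 and LHCB1.5 were 92.5% identical, and LHCB2.1 and LHCB2.2 were 96.6% identical. LHCB2.3 was less alike, with 85.8% identity to LHCB2.1. Between 29.2% and 44.4% of the 21-base windows of each LHCB1 transcript also stood in another of the 39 genes, as did 38.9% for LHCB2.1 and 47.1% for LHCB2.2, against 3.88% for LHCB2.3. LHCB1.1, LHCB1.2 and LHCB1.3 are neighbours on chromosome 1 (chr1:10474656-10475969, chr1:10472280-10473502 and chr1:10477885-10479114, TAIR10). LHCB1.4 and LHCB1.5 are neighbours on chromosome 2 (chr2:14524607-14525918 and chr2:14522524-14523568), and LHCB2.1 (chr2:1822990-1824480) and LHCB2.2 (chr2:1799234-1800472) lie elsewhere on the same chromosome. LHCB2.3 lies on chromosome 3 (chr3:10255906-10257489). The sources used here do not say to which copy a read matching several was counted, and the value of one copy within LHCB1.1 to LHCB1.3, within LHCB1.4 and LHCB1.5 or within LHCB2.1 and LHCB2.2 is uncertain. Outside this family the share of windows found in another member was at most 2.56% (PSAD2), while 28.2% of the windows of LHCA2 occurred more than once in the genome.

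Library totals lay between 2358724 and 2909767 counts. Protein-coding genes took 7.41% to 7.5% of counts in the triple mutant, 10.7% to 11.7% in the double mutant, 6.68% to 6.72% in rdr6-11 and 6.36% to 6.46% in Col-0, and the rest was mainly rRNA, tRNA and organelle RNA. Replicates 1 and 2 of the double mutant agree within sampling noise over protein-coding genes (mean chi-square 1 per gene, 3816 genes) and were summed into 1 sample, so that genotype has n = 2 in the tests. Over all genes the same pair differed slightly (mean chi-square 1.07, 6630 genes, p 7.37e-05). Col-0 replicates 2 and 3 also agree over protein-coding genes (1.02, p 0.28) but not over all genes (1.62, p 2.57e-106), and were kept apart. The series describes its replicates as biological, and the labels do not say which plants each came from, so p-values measure the spread between these libraries, which may be technical. The mutated genes themselves reached no more than 7 counts, too few to check the genotypes. The leaf genes RBCS1A, RCA and CA1 together had 1437, 1571 and 1525 counts in the triple mutant, 992, 987 and 1194 in the double mutant, 1155, 1340 and 1086 in rdr6-11 and 1389, 1199 and 1278 in Col-0. The root genes RHD6, EXP7 and COBL9 and the flower genes AG, AP3, PI and SEP3 were at or near 0 throughout. The other root genes, SCR and SHR, were higher in the double mutant than in Col-0. With them the root list of 5 summed to 16 to 21 counts in the triple mutant and 34 to 47 in the double mutant. Its sum was 3 to 6 in rdr6-11 and 2 to 3 in Col-0.

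Of the 39 genes, 38 passed the filter on low counts and were tested. The exception was LHCB7, a rarely expressed antenna protein, which had 0, 0 and 1 counts in the triple mutant, 0 in every library of the double mutant, 1 in each of the 3 rdr6-11 libraries and 0 in every Col-0 library. Together the 39 genes held 0.164% to 0.166% of all counts in the triple mutant, 0.164% to 0.172% in the double mutant, 0.125% to 0.13% in rdr6-11 and 0.136% to 0.145% in Col-0. Per kilobase of spliced transcript, the level in Col-0 was highest for LHCB1.3 at 162 TMM-normalised CPM (counts scaled to library size) per kilobase, followed by LHCB1.2 at 123 and LHCB1.1 at 105. LHCB1.5 (91.9) and PSBR (90.7), which stabilises the oxygen-evolving complex, came next on that scale. The lowest tested levels were those of LHCB2.3 at 2.5 and LHCB4.3 at 3.01 CPM per kilobase.

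Small RNA of the LHCB1 and LHCB2 genes was more abundant, relative to the other 31 genes, in the double mutant than in any other genotype. Within each library, where no scaling between libraries enters, the 8 LHCB1 and LHCB2 genes had 68.7, 70.1 and 66.3 counts per 100 counts of the other 31 genes in the triple mutant. The ratio was 95.8, 98.6 and 94.9 in the double mutant, 57.5, 63.4 and 54.6 in rdr6-11 and 56.4, 58.5 and 57.3 in Col-0. The 3 double mutant libraries lay above all others and the 3 triple mutant libraries lay between them and the rest, while rdr6-11 and Col-0 overlapped. The division into these 8 genes and the other 31 was made after their values were seen, so the ratio is given as a description without a test. Counts of called genes given below for this family carry the same limit. In RNA from whole shoots, fewer cells of a type and less RNA per cell cannot be told apart.

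**Figure D1:**
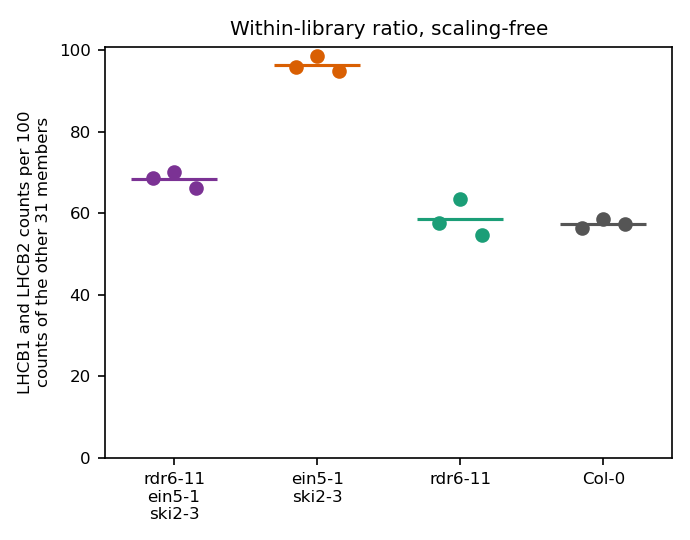
Counts of the 8 LHCB1 and LHCB2 genes per 100 counts of the other 31 genes (vertical axis, linear from 0) in each of 12 libraries, by genotype; points are libraries and lines are means of 3 libraries. The double mutant libraries sit at 94.9 to 98.6, the triple mutant libraries at 66.3 to 70.1, and rdr6-11 and Col-0 together at 54.6 to 63.4.

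In the double mutant the family's sum was above Col-0, while that of the other genes overlapped it. The 8 genes summed to 1742, 1860 and 1772 counts in the triple mutant, 2046, 2201 and 2318 in the double mutant, 1218, 1426 and 1136 in rdr6-11 and 1345, 1263 and 1374 in Col-0. As a share of the library this was 0.0656% to 0.0684% in the triple mutant, 0.0797% to 0.0855% in the double mutant, 0.044% to 0.0503% in rdr6-11 and 0.0489% to 0.0535% in Col-0. The other 31 genes summed to 2535, 2653 and 2674 counts in the triple mutant, 2136, 2232 and 2443 in the double mutant, 2117, 2248 and 2082 in rdr6-11 and 2384, 2159 and 2396 in Col-0. As a share of protein-coding counts, which were themselves larger in the double mutant, the family's sum was 0.886% to 0.913% in the triple mutant, 0.694% to 0.742% in the double mutant, 0.66% to 0.751% in rdr6-11 and 0.76% to 0.829% in Col-0. The direction against Col-0 depended on the denominator, and each comparison below is given on 2 scales. The first is TMM, which scales libraries by a trimmed mean of gene-wise ratios, and on which the median of all tested genes still lies off 0 (0.29 in the double mutant against Col-0). The second, chosen after the data were seen and called relative here, scales each library to the summed counts of 22 other nuclear genes of photosynthetic electron transport, among them PETC, PSBS, PSAO, FNR1 and FNR2. That sum was 810, 812 and 889 in the triple mutant, 675, 663 and 741 in the double mutant, 690, 743 and 635 in rdr6-11 and 797, 695 and 776 in Col-0, and its own counting error is not part of the standard errors.

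In the double mutant against Col-0 on the TMM scale, 27 of the 38 tested genes fell and 4 rose (edgeR quasi-likelihood test; a call is a Benjamini-Hochberg adjusted p under 0.05, with 7219 genes in the adjustment). Of all genes tested, 30.5% were called higher and 18.8% lower. The median log2 change of the 38 genes was -0.81, against 0.29 for all genes tested and 0.22 for protein-coding genes. The 4 that rose were LHCB1.4, LHCB2.1, LHCB2.2 and LHCB2.3, and no gene outside the LHCB1 and LHCB2 family rose. That count of 4 was 0 with DESeq2, without rdr6-11 replicate 2, and with only the 2 genotypes in the fit. Without rdr6-11 replicate 2, a library outside this comparison, the median of all genes moved from 0.29 to 0.09 and the family's from 0.31 to 0.115. Without replicate 3 of the double mutant, which leaves 1 sample of that genotype, they were 0.05 and 0.02. Without its replicates 1 and 2 they were 0.05 and 0.15. Scaled to total counts, 12 of the 38 genes were higher and 4 lower, where 61.6% of all genes were called higher and 3.53% lower. On the relative scale, 15 were higher and 1 lower, where 68.3% of all genes were called higher and 1.81% lower.

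All 8 genes of the family were among the 15 that were higher on the relative scale. Leaving out replicate 3 of the double mutant, or its replicates 1 and 2, leaves 1 sample of that genotype, so only medians are given. In those 2 fits they were 1.28 and 1.27 for the family, 0.01 and 0.15 for the other members and 1.3 and 1.16 for all genes. The family's median relative log2 change was 1.28, close to the median of all genes tested at 1.25, while that of the other 30 tested genes was 0.08. The LHCB1 and LHCB2 genes shifted by about as much as the middle gene of the table, and the other members by less. On the TMM scale the reference genes had a median of -0.92 and the other members -0.90. The other members therefore lie near 0 on the relative scale. The family's calls on that scale, here and in the comparisons below, restate a split made after its values were seen and are no independent result.

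LHCB2 encodes a trimer subunit that is phosphorylated when the antenna moves between photosystems. LHCB2.1 (AT2G05100) had 47, 42 and 42 counts in the triple mutant, 75, 73 and 64 in the double mutant, 31, 27 and 16 in rdr6-11 and 22, 23 and 27 in Col-0. Its log2 change in the double mutant against Col-0 was 0.69 (SE 0.213, adjusted p 0.00618 by edgeR) on the TMM scale and 1.65 (SE 0.219, adjusted p 2.02e-08) on the relative scale. LHCB2.2 (AT2G05070) had 72, 60 and 62 counts in the triple mutant, 93, 92 and 89 in the double mutant, 39, 39 and 28 in rdr6-11 and 35, 29 and 36 in Col-0. In both genes the double mutant counts were the highest, with no overlap with any other genotype, and the triple mutant counts came next. Here and below, counts without overlap are described alone, since the share of all genes that separate the same way was not counted. Protein-coding genes as a whole took a larger share of counts in the double mutant than in the other genotypes. The TMM change of LHCB2.2 was 0.59 (SE 0.183, adjusted p 0.00615) and the relative change 1.56 (SE 0.189, adjusted p 2.98e-09). LHCB2.3 (AT3G27690) had 12, 10 and 13 counts in the triple mutant, 25, 27 and 25 in the double mutant, 10, 11 and 9 in rdr6-11 and 9, 5 and 8 in Col-0. Its double mutant counts again stood apart, while those of the other genotypes lay between 5 and 13, and its change of 0.94 (SE 0.32, adjusted p 0.0123) on the TMM scale was the largest rise among the 38 genes. As the copy with little shared sequence, LHCB2.3 is the member of the family whose count depends least on how reads were divided. Its neighbour AT3G27700, which overlaps it, had 1 to 9 counts.

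LHCB1 encodes the main trimer subunit, and its 5 copies fell into the same 2 groups by value as by sequence. Copies within a group share sequence, and how reads matching several were assigned is not known, so likeness of their values can be partly built in. LHCB1.4 (AT2G34430) had 162, 192 and 159 counts in the triple mutant, 230, 245 and 269 in the double mutant, 103, 139 and 109 in rdr6-11 and 120, 100 and 102 in Col-0. LHCB1.5 (AT2G34420) had 280, 311 and 283 counts in the triple mutant, 386, 410 and 427 in the double mutant, 168, 213 and 149 in rdr6-11 and 195, 177 and 199 in Col-0. In both, the double mutant was highest and the triple mutant second, with no overlap between them or with the rest. LHCB1.4 rose by 0.37 on the log2 TMM scale (SE 0.133, adjusted p 0.0192), and LHCB1.5 had a change of 0.25 that did not pass (SE 0.117, adjusted p 0.0709), while the relative changes were 1.34 and 1.22 (adjusted p 1.44e-10 and 5.32e-11).

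The chromosome 1 copies, with the highest counts of all 39 genes in Col-0, changed less than LHCB1.4 and LHCB1.5 on the relative scale. LHCB1.1 (AT1G29920) had 346, 367 and 351 counts in the triple mutant, 368, 411 and 418 in the double mutant, 240, 277 and 241 in rdr6-11 and 275, 265 and 279 in Col-0. LHCB1.2 (AT1G29910) had 366, 390 and 380 counts in the triple mutant, 396, 412 and 463 in the double mutant, 257, 299 and 251 in rdr6-11 and 300, 291 and 301 in Col-0. LHCB1.3 (AT1G29930) had 457, 488 and 482 counts in the triple mutant, 473, 531 and 563 in the double mutant, 370, 421 and 333 in rdr6-11 and 389, 373 and 422 in Col-0. For all 3 the counts of the double mutant lay above those of Col-0 without overlap. The share of all genes separated in this way was not counted, and 61.6% were called higher with scaling to total counts. Even so, the TMM changes of these 3 genes were -0.30, -0.33 and -0.44 and all passed as falls (adjusted p 0.0197, 0.0117 and 0.000571). With scaling to total counts the same genes were higher by 0.50, 0.48 and 0.37, and on the relative scale by 0.66, 0.64 and 0.53 (adjusted p 5.3e-06, 7.91e-06 and 6.88e-05), so their direction depends on the scaling.

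Summing near-identical copies before the fit, which reuses the same counts, gave the same directions. On the TMM scale, LHCB2.1 and LHCB2.2 together rose by 0.63 (SE 0.157, adjusted p 0.000761) and LHCB1.4 and LHCB1.5 by 0.29 (SE 0.11, adjusted p 0.0239). LHCB1.1, LHCB1.2 and LHCB1.3 together fell by 0.36 (SE 0.0948, adjusted p 0.00117).

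**Figure D2:**
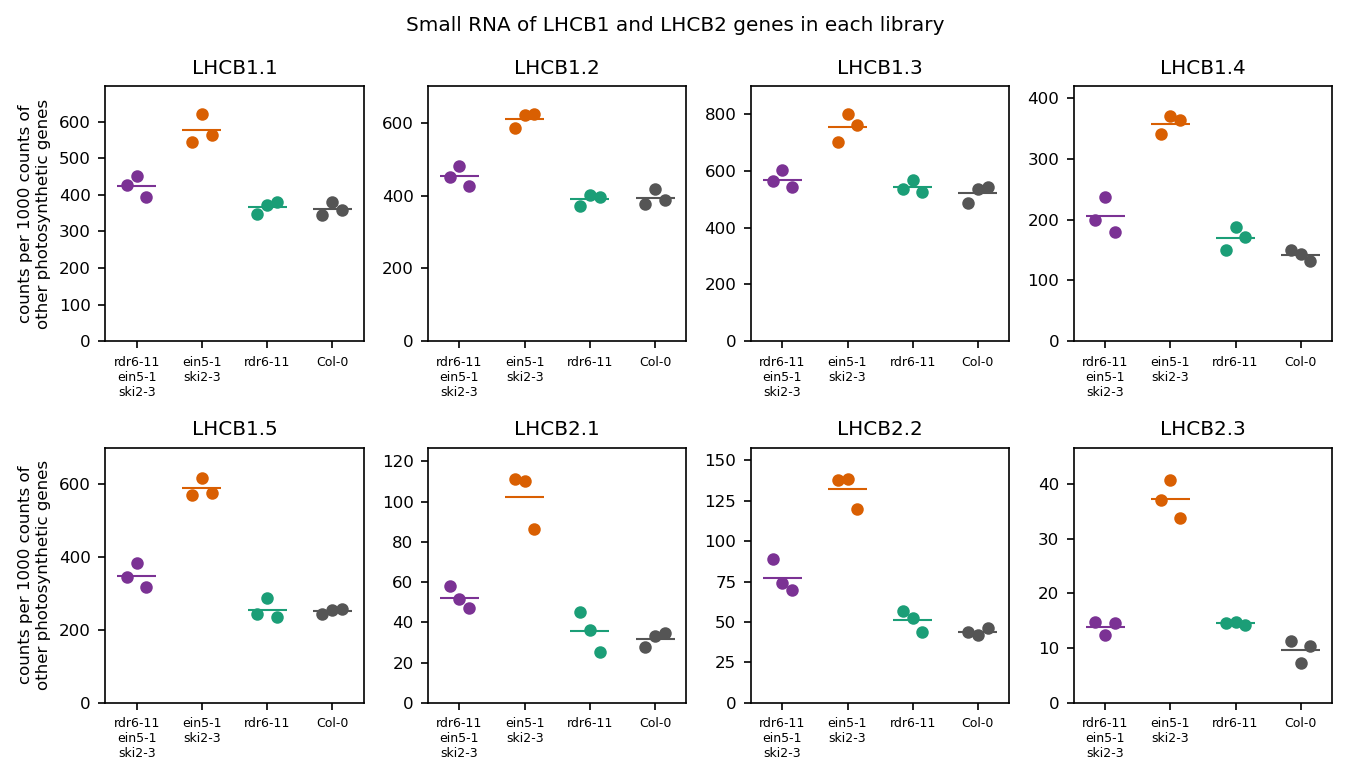
Counts of each LHCB1 and LHCB2 gene per 1000 counts of 22 other photosynthetic electron transport genes (vertical axes, linear from 0, 1 panel per gene) in each library, by genotype; points are libraries and lines are means of 3 libraries. In each of the 8 panels the double mutant libraries sit above those of all other genotypes. On this scale 68.3% of all genes were called higher in the double mutant against Col-0. In the triple against the double mutant 60.7% were called lower. How many genes of the whole table separate in this way was not counted.

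The other antenna proteins of photosystem II link the trimers to the core. LHCB3 (AT5G54270), a minor trimer subunit, had 53, 61 and 67 counts in the triple mutant, 67, 77 and 83 in the double mutant, 46, 46 and 50 in rdr6-11 and 53, 46 and 47 in Col-0. Its counts were higher in the double mutant than in Col-0 without overlap, its TMM change was -0.21 (adjusted p 0.321) and its relative change 0.76 (SE 0.18, adjusted p 0.000285). LHCB4.2 (AT3G08940), one of 3 genes for the monomeric antenna CP29, had 18, 18 and 23 counts in the triple mutant, 32, 32 and 27 in the double mutant, 16, 20 and 20 in rdr6-11 and 24, 17 and 21 in Col-0. It too had a TMM change that did not pass, -0.31, and a relative rise of 0.66 (adjusted p 0.015). The sister gene LHCB4.1 (AT5G01530) had 133, 130 and 140 counts in the triple mutant, 98, 119 and 136 in the double mutant, 94, 126 and 100 in rdr6-11 and 133, 108 and 145 in Col-0. LHCB4.1 overlapped across genotypes in raw counts, fell by 0.96 on the TMM scale (SE 0.141, adjusted p 1.08e-07) and had a relative change of 0.01. LHCB4.3 (AT2G40100), the least abundant CP29 gene, had 14, 10 and 3 counts in the triple mutant, 4, 7 and 1 in the double mutant, 13, 5 and 8 in rdr6-11 and 11, 5 and 8 in Col-0. Its TMM change of -1.83 (SE 0.557, adjusted p 0.00542) was the largest among the 38 genes but rests on 12 counts in 3 double mutant libraries, which overlap those of Col-0, and the relative change of -0.87 did not pass (adjusted p 0.182).

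LHCB5 (CP26) and LHCB6 (CP24) are the remaining monomeric antennae. LHCB5 (AT4G10340) had 125, 133 and 142 counts in the triple mutant, 115, 145 and 142 in the double mutant, 125, 103 and 111 in rdr6-11 and 123, 125 and 123 in Col-0, and the 4 genotypes overlapped. LHCB6 (AT1G15820) had 46, 68 and 69 counts in the triple mutant, 54, 59 and 37 in the double mutant, 43, 46 and 36 in rdr6-11 and 68, 60 and 62 in Col-0, with every double mutant library below every Col-0 library. Both fell on the TMM scale, by 0.73 and 1.22, and neither passed on the relative scale (0.24 and -0.26).

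Photosystem I is served by its own antenna belt, built from LHCA1 to LHCA4. LHCA1 (AT3G54890) had 54, 65 and 75 counts in the triple mutant, 51, 65 and 53 in the double mutant, 43, 42 and 30 in rdr6-11 and 42, 47 and 37 in Col-0. LHCA4 (AT3G47470) had 63, 67 and 64 counts in the triple mutant, 70, 62 and 70 in the double mutant, 42, 24 and 43 in rdr6-11 and 44, 47 and 45 in Col-0. These 2 genes, whose products pair with each other in the belt, had higher counts in the double mutant than in Col-0 without overlap, with relative rises of 0.53 (adjusted p 0.0199) and 0.69 (adjusted p 0.00315) and TMM changes that did not pass (-0.44 and -0.28). LHCA2 (AT3G61470) had 180, 168 and 168 counts in the triple mutant, 153, 157 and 155 in the double mutant, 120, 133 and 115 in rdr6-11 and 144, 141 and 158 in Col-0. LHCA3 (AT1G61520) had 120, 99 and 113 counts in the triple mutant, 90, 115 and 119 in the double mutant, 85, 93 and 70 in rdr6-11 and 104, 87 and 78 in Col-0. LHCA2 and LHCA3, the other pair, fell on the TMM scale by 0.79 and 0.57, and on the relative scale LHCA3 rose by 0.40 (adjusted p 0.0248) while LHCA2 did not pass (0.18).

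All 7 photosystem II subunits fell in the double mutant on the TMM scale, with a median of -1.06. PSBQ1 (AT4G21280), a luminal extension of the oxygen-evolving complex, had 65, 78 and 71 counts in the triple mutant, 34, 39 and 48 in the double mutant, 63, 64 and 46 in rdr6-11 and 63, 56 and 64 in Col-0. Each double mutant library was below every library of Col-0 and of the triple mutant, and the fall of 1.43 (SE 0.187, adjusted p 5.79e-09) came with the only fall on the relative scale (-0.46, adjusted p 0.0349). PSBP1 (AT1G06680), its luminal partner, had 111, 125 and 100 counts in the triple mutant, 96, 77 and 100 in the double mutant, 105, 118 and 104 in rdr6-11 and 133, 101 and 132 in Col-0, with a fall of 1.26 (adjusted p 1.6e-10). PSBX (AT2G06520), a small membrane subunit, had 81, 86 and 94 counts in the triple mutant, 45, 64 and 59 in the double mutant, 62, 77 and 67 in rdr6-11 and 63, 74 and 83 in Col-0, with a fall of 1.24 (adjusted p 1.98e-08). Those 2 genes had relative changes of -0.29 and -0.27 that did not pass.

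PSBO1 and PSBO2 encode the manganese-stabilising protein. PSBO1 (AT5G66570) had 175, 187 and 171 counts in the triple mutant, 147, 143 and 161 in the double mutant, 151, 141 and 160 in rdr6-11 and 181, 152 and 155 in Col-0. PSBO2 (AT3G50820) had 76, 81 and 73 counts in the triple mutant, 49, 52 and 75 in the double mutant, 71, 53 and 66 in rdr6-11 and 68, 50 and 68 in Col-0. Genotypes overlapped widely in PSBO2, and the relative changes were 0.01 and 0.08. PSBR (AT1G79040) had 155, 158 and 168 counts in the triple mutant, 122, 135 and 165 in the double mutant, 137, 154 and 137 in rdr6-11 and 129, 138 and 155 in Col-0. PSBW (AT2G30570), a small subunit that stabilises the supercomplex, had 49, 51 and 65 counts in the triple mutant, 47, 51 and 55 in the double mutant, 54, 45 and 53 in rdr6-11 and 58, 54 and 65 in Col-0. The TMM falls of these 4 genes lay between 0.83 and 1.06, and none passed on the relative scale.

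Of 9 photosystem I subunits, 8 fell on the TMM scale, with a median of -0.95 for all 9. PSAN (AT5G64040), a luminal subunit near the plastocyanin docking site, had 57, 61 and 49 counts in the triple mutant, 33, 41 and 42 in the double mutant, 40, 48 and 48 in rdr6-11 and 55, 48 and 62 in Col-0. The double mutant counts were below those of both Col-0 and the triple mutant without overlap, and the fall was 1.35 (SE 0.189, adjusted p 3.11e-08), while the relative change of -0.38 did not pass. PSAD1 and PSAD2 encode the stromal subunit that docks ferredoxin. PSAD1 (AT4G02770) had 65, 74 and 80 counts in the triple mutant, 95, 64 and 79 in the double mutant, 47, 61 and 42 in rdr6-11 and 62, 49 and 60 in Col-0. PSAD2 (AT1G03130) had 23, 35 and 31 counts in the triple mutant, 35, 26 and 33 in the double mutant, 24, 21 and 21 in rdr6-11 and 36, 26 and 28 in Col-0. PSAD1 was the subunit gene that did not pass on the TMM scale (-0.38, adjusted p 0.0562) and rose on the relative one (0.59, adjusted p 0.00295), whereas PSAD2 fell by 0.79 on TMM and did not pass on the relative scale (0.19).

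The remaining 6 subunit genes of photosystem I fell by 0.86 to 1.08 on the TMM scale and had relative changes from -0.11 to 0.11 that did not pass. PSAE1 (AT4G28750), the second stromal subunit at the ferredoxin site, had 37, 51 and 40 counts in the triple mutant, 23, 30 and 36 in the double mutant, 31, 44 and 29 in rdr6-11 and 30, 38 and 30 in Col-0. PSAF (AT1G31330), which helps bind plastocyanin, had 62, 74 and 85 counts in the triple mutant, 48, 57 and 65 in the double mutant, 55, 72 and 75 in rdr6-11 and 65, 60 and 58 in Col-0. In neither did the double mutant separate from Col-0 in raw counts. PSAG and PSAK flank the antenna belt. PSAG (AT1G55670) had 117, 83 and 99 counts in the triple mutant, 95, 72 and 90 in the double mutant, 93, 89 and 90 in rdr6-11 and 94, 90 and 97 in Col-0. PSAK (AT1G30380) had 88, 87 and 103 counts in the triple mutant, 70, 59 and 88 in the double mutant, 76, 95 and 93 in rdr6-11 and 74, 68 and 86 in Col-0. Both overlapped across genotypes. PSAH2 and PSAL form the docking side for light-harvesting complex II. PSAH2 (AT1G52230) had 47, 32 and 48 counts in the triple mutant, 40, 36 and 36 in the double mutant, 38, 31 and 35 in rdr6-11 and 51, 39 and 41 in Col-0. PSAL (AT4G12800) had 140, 150 and 127 counts in the triple mutant, 81, 103 and 112 in the double mutant, 90, 118 and 102 in rdr6-11 and 104, 97 and 100 in Col-0. PSAL was higher in every triple mutant library than in any other library.

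Plastocyanin is encoded by 2 of the genes. PETE1 (AT1G76100), the minor form, had 25, 33 and 22 counts in the triple mutant, 38, 37 and 24 in the double mutant, 18, 23 and 16 in rdr6-11 and 14, 14 and 19 in Col-0. Its counts in the double mutant were all above those of Col-0, and the relative change was 1.16 (SE 0.273, adjusted p 0.000282), inside the range of the LHCB1 and LHCB2 genes, while the TMM change of 0.20 did not pass. PETE2 (AT1G20340), the major form, had 196, 232 and 240 counts in the triple mutant, 189, 186 and 195 in the double mutant, 199, 219 and 198 in rdr6-11 and 233, 204 and 215 in Col-0, with every double mutant library below Col-0, a TMM fall of 1.05 (SE 0.123, adjusted p 2.98e-10) and a relative change of -0.08. The ATP synthase gamma subunit gene ATPC1 (AT4G04640) had 112, 112 and 96 counts in the triple mutant, 75, 79 and 114 in the double mutant, 88, 89 and 80 in rdr6-11 and 90, 80 and 107 in Col-0. The delta subunit gene ATPD (AT4G09650) had 48, 44 and 47 counts in the triple mutant, 40, 43 and 43 in the double mutant, 47, 47 and 36 in rdr6-11 and 35, 38 and 47 in Col-0. Both overlapped between the double mutant and Col-0, fell on the TMM scale by 0.86 and 0.78 and did not pass on the relative scale.

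**Figure D3:**
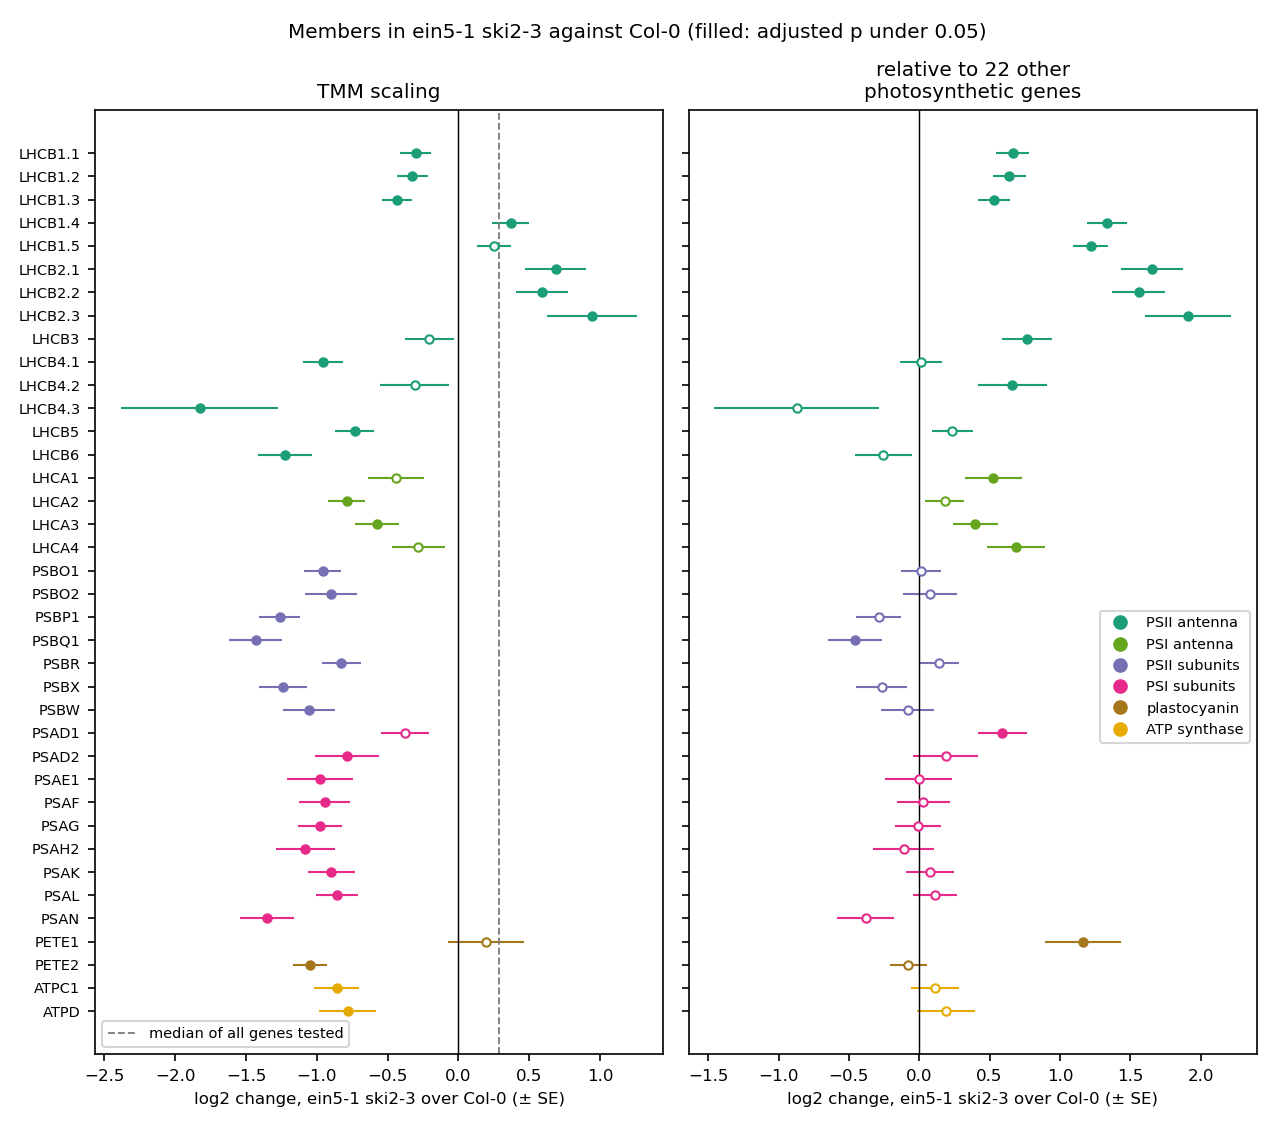
Log2 change of 38 genes in ein5-1 ski2-3 against Col-0 (horizontal axes) with TMM scaling (left) and relative to 22 other photosynthetic electron transport genes (right); bars are standard errors, filled points have adjusted p under 0.05, colours give the role. On the right the LHCB1 and LHCB2 genes lie between 0.53 and 1.91, and of the other 30 genes 7 have filled points above 0 and 1, PSBQ1, has a filled point below 0.

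Other genes of the pathway were taken from lists made with earlier results of these data known. Of the 22 other photosynthetic electron transport genes, 19 were tested and 15 fell on the TMM scale, with none higher and a median of -0.92. Of 13 chlorophyll synthesis genes, 11 were tested: 7 fell and 1 rose. The gene that rose was GUN4 (AT3G59400), an activator of magnesium chelatase, which had 7, 10 and 11 counts in the triple mutant, 31, 20 and 21 in the double mutant, 3, 6 and 3 in rdr6-11 and 5, 3 and 2 in Col-0. Its TMM change was 1.96 (SE 0.416, adjusted p 9.13e-05). Of 10 light-harvesting relatives and regulators, 5 were tested, 2 fell and 1 rose. The riser was GLK1 (AT2G20570), a transcription factor that activates LHCB and chlorophyll synthesis genes, which had 15, 25 and 23 counts in the triple mutant, 44, 42 and 58 in the double mutant, 8, 7 and 11 in rdr6-11 and 4, 11 and 9 in Col-0 and a TMM change of 1.74 (SE 0.302, adjusted p 3.28e-06). For both genes all 3 double mutant libraries exceeded those of every other genotype, again without a share of all genes to set beside it. CHAOS (AT2G47450), the chloroplast signal recognition particle subunit that escorts light-harvesting proteins, had 23, 35 and 29 counts in the triple mutant, 42, 58 and 25 in the double mutant, 17, 11 and 12 in rdr6-11 and 22, 19 and 14 in Col-0, with a TMM change of 0.29 that did not pass and a relative change of 1.26 (adjusted p 0.000131).

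The leaf genes RBCS1A, RCA and CA1 also fell in the double mutant on the TMM scale (-1.07, -1.07 and -1.40). The root-expressed genes SCR and SHR rose, with 19, 13 and 20 counts of SCR in the double mutant against 1, 3 and 1 in Col-0 and 28, 20 and 20 counts of SHR against 1, 0 and 1. The whole root list of 5 genes summed to 16 to 21 counts in the triple mutant, 34 to 47 in the double mutant, 3 to 6 in rdr6-11 and 2 to 3 in Col-0, and its root hair genes RHD6, EXP7 and COBL9 had 0 or 1 counts in each library. The part of leaf or root content in the members' changes was not tested.

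In rdr6-11 against Col-0, where mRNA decay is intact, 29 of the 38 genes fell on the TMM scale and none rose, against 21.3% of all genes called higher and 15.3% lower. The median was -0.61 for the 38 genes, -0.01 for all genes and -0.25 for protein-coding genes. The largest falls were those of LHCB6 (-1.11, SE 0.188, adjusted p 3.51e-06), PSAD2 (-0.95, SE 0.235, adjusted p 0.001), PSAH2 (-0.83, SE 0.203, adjusted p 0.000826), LHCA4 (-0.82, SE 0.203, adjusted p 0.000974) and PSAN (-0.78, SE 0.177, adjusted p 0.000333). The LHCB1 and LHCB2 genes did not stand apart: 5 of 8 fell and their median was -0.52, against -0.61 for the other 30. Relative to the other photosynthesis genes, no gene passed in either direction, where 36.9% of all genes were called higher and 2.23% lower, and the medians were 0.11 for the family and 0.03 for the rest. Scaled to total counts, 2 of the 38 genes were lower and none higher, against 32.7% of all genes higher and 6.03% lower.

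With RDR6 lost as well, the LHCB1 and LHCB2 genes stood lower relative to the other members than in the double mutant. In the triple mutant against the double mutant on the TMM scale, 27 of the 38 genes rose and 1 fell, against 14.4% of all genes called higher and 27% lower. The median was 0.60 for the 38 genes, -0.21 for all genes and -0.05 for protein-coding genes. The largest rises were those of LHCB4.3 (1.59, SE 0.543, adjusted p 0.0163), PSBQ1 (1.25, SE 0.183, adjusted p 2.06e-07), PSBX (1.07, SE 0.165, adjusted p 6.68e-07), PSAN (0.96, SE 0.188, adjusted p 5.28e-05) and PSAE1 (0.95, SE 0.222, adjusted p 0.000534). The gene that fell was LHCB2.3 (-0.69, SE 0.282, adjusted p 0.0448), a call lost in 7 of 12 fits that each left out 1 library. All 7 photosystem II subunits rose, as did 7 of 9 photosystem I subunits, 3 of 4 photosystem I antenna genes and both ATP synthase genes.

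On the relative scale all 8 LHCB1 and LHCB2 genes fell in the triple mutant against the double mutant, with a median of -0.75. Of all genes, 0.942% were called higher and 60.7% lower there. The median of all genes tested was -0.91, so the family fell by less than the middle gene of the table. LHCB2.3 fell by 1.39 (SE 0.276, adjusted p 4.02e-05), LHCB2.1 by 0.94 (SE 0.198, adjusted p 9.5e-05) and LHCB1.4 by 0.81 (SE 0.137, adjusted p 3.64e-06), while LHCB1.3 fell least, by 0.41 (SE 0.111, adjusted p 0.00164). Of the other 30 genes, LHCB3 (-0.60), LHCB4.2 (-0.88) and PSAD1 (-0.38) fell, PSBQ1 rose (0.54), and the median was -0.05. Without replicate 3 of the double mutant, which leaves 1 sample of that genotype, the median was -0.78 for the family and -0.97 for all genes. Without its replicates 1 and 2 these medians were -0.68 and -0.82. Scaled to total counts, 5 of the 8 fell and none rose, where 3.8% of all genes were called higher and 48.1% lower. On the TMM scale, where 3 of the 8 rose and 1 fell, GLK1 and GUN4 fell by 0.77 and 0.90 (adjusted p 0.00862 and 0.0199 by edgeR). Of the 11 tested chlorophyll synthesis genes, 6 rose and 1 fell on that scale. Of the 5 tested light-harvesting relatives and regulators, 0 rose and 1 fell.

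The triple mutant against rdr6-11 shows the loss of EIN5 and SKI2 in plants without RDR6 and shares no library with the double mutant against Col-0. On the TMM scale 21 of the 38 genes rose and none fell, against 20.4% of all genes called higher and 25.2% lower, and the median was 0.42, against 0.12 for all genes and 0.46 for protein-coding genes. The largest rises were those of LHCB2.2 (0.96, SE 0.181, adjusted p 3.29e-05), LHCA4 (0.92, SE 0.19, adjusted p 0.000134), LHCB2.1 (0.91, SE 0.218, adjusted p 0.000758), LHCA1 (0.84, SE 0.187, adjusted p 0.00032) and LHCB1.5 (0.82, SE 0.112, adjusted p 6.7e-08). With TMM factors taken from protein-coding genes alone the count of higher genes was 3 of 38, where 6.8% of all genes were called higher and 38.2% lower. On the relative scale 5 genes rose, LHCB1.5, LHCB2.1, LHCB2.2, LHCA1 and LHCA4, by 0.45 to 0.59, and none fell, against 7.99% of all genes called higher and 36.4% lower. LHCB2.3, the largest riser of the double mutant, had a relative change of -0.06 here.

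Set side by side, the relative change of LHCB2.1 was 0.55 in the triple mutant against rdr6-11 and 1.65 in the double mutant against Col-0. For LHCB1.4 the same pair of values was 0.27 and 1.34, and for LHCA4 0.54 and 0.69. On the relative scale the change was larger with RDR6 present in 27 of the 38 genes, among them all 8 of the family. The gap between the 2 changes is the interaction given below. Its median over all genes tested was -1.64 on the relative scale, so most genes of the table had this order. On the TMM scale the change was larger with RDR6 present in 1 of the 38 genes, LHCB2.3, so this order depends on the scaling. The median interaction of all genes was -0.31 there, and that of protein-coding genes was 0.19. On that scale LHCB2.1 had 0.91 in the triple mutant against rdr6-11 and 0.69 in the double mutant against Col-0, and LHCB2.2 had 0.96 and 0.59 in the same pair. Across the 38 genes Pearson's r between the 2 sets of relative changes was 0.588 and Spearman's rho 0.566. Across the 30 genes outside the family they were 0.465 and 0.422. These are descriptions across genes, which are not independent replicates, and the near-identical copies share reads.

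**Figure D4:**
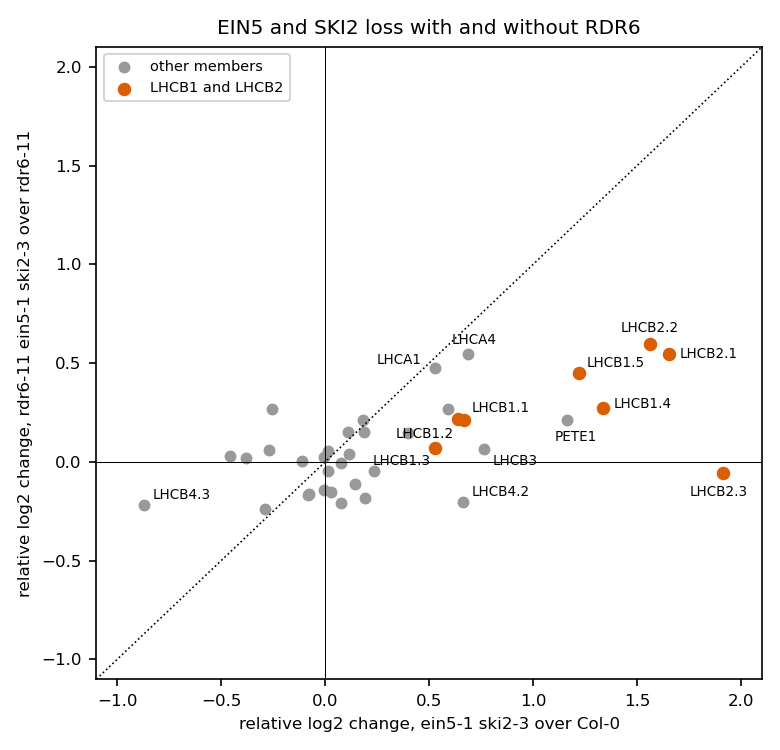
Relative log2 change of 38 genes in rdr6-11 ein5-1 ski2-3 over rdr6-11 (vertical axis) against that in ein5-1 ski2-3 over Col-0 (horizontal axis); each point is a gene and the dotted line marks equal changes. All 8 LHCB1 and LHCB2 genes lie below the line, with LHCB2.3 at -0.06 against 1.91. The vertical distance from the line is the relative interaction, with a median of -1.64 over all genes tested. With TMM scaling LHCB2.3 alone is larger on the horizontal axis.

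Against Col-0 the triple mutant differed in few of these genes. On the TMM scale LHCB2.2 rose (0.54, SE 0.185, adjusted p 0.0301), and PSBP1 (-0.53, SE 0.131, adjusted p 0.00169), PSBW (-0.51, SE 0.171, adjusted p 0.0265) and PETE2 (-0.38, SE 0.111, adjusted p 0.00938) fell. Of all genes, 8.8% were called higher and 9.52% lower. The median was -0.16 for the 38 genes, 0.03 for all genes and 0.14 for protein-coding genes. The rise of LHCB2.2 was lost without Col-0 replicate 1, 2 or 3 and without replicate 1 of the triple mutant. The count of falls reached 6 without replicate 3 of the double mutant. Relative to the other photosynthesis genes, LHCB1.4 (0.53, adjusted p 0.00474), LHCB1.5 (0.47, adjusted p 0.00331), LHCB2.1 (0.71, adjusted p 0.0216) and LHCB2.2 (0.81, adjusted p 0.00169) were higher in the triple mutant and no other gene passed, against 15.3% of all genes called higher and 4.43% lower. LHCB1.1, LHCB1.2 and LHCB1.3, at 0.23, 0.20 and 0.12, did not pass. With library totals as the scale, 9 genes were higher and 0 lower, against 21.8% and 3.46% of all genes.

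The interaction tests whether losing RDR6 changed a gene differently in ein5-1 ski2-3 than in wild type. The interaction is the same quantity as the gap between the 2 changes set side by side above, and is no separate result. On the TMM scale it was positive and called for 32 of the 38 genes and negative for none. Of all genes, 19.8% were called higher and 31.7% lower. The median was 1.2, against -0.31 for all genes and 0.19 for protein-coding genes. The largest values were those of LHCB4.3 (1.97, SE 0.722, adjusted p 0.02), LHCB6 (1.86, SE 0.268, adjusted p 1.01e-07), PSBQ1 (1.83, SE 0.249, adjusted p 2.86e-08), PSAN (1.74, SE 0.258, adjusted p 1.97e-07) and PSBX (1.67, SE 0.228, adjusted p 3.04e-08). The 6 genes not called were LHCB1.4, LHCB2.1, LHCB2.2, LHCB2.3, LHCB4.2 and PETE1. Relative to those other genes the interaction was negative and called for all 8 LHCB1 and LHCB2 genes, with a median of -0.87, and for LHCB3 (-0.70), LHCB4.2 (-0.87) and PETE1 (-0.95). No gene was called in the positive direction there, where 0.873% of all genes were called higher and 60% lower. LHCB2.3 had the largest relative interaction (-1.97, SE 0.466, adjusted p 0.000364), followed by LHCB2.1 (-1.11, SE 0.323, adjusted p 0.00312) and LHCB1.4 (-1.06, SE 0.199, adjusted p 1.42e-05). With library totals as the scale, the interaction was called positive for 8 genes and negative for 2, against 4.59% and 47.5% of all genes.

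**Figure D5:**
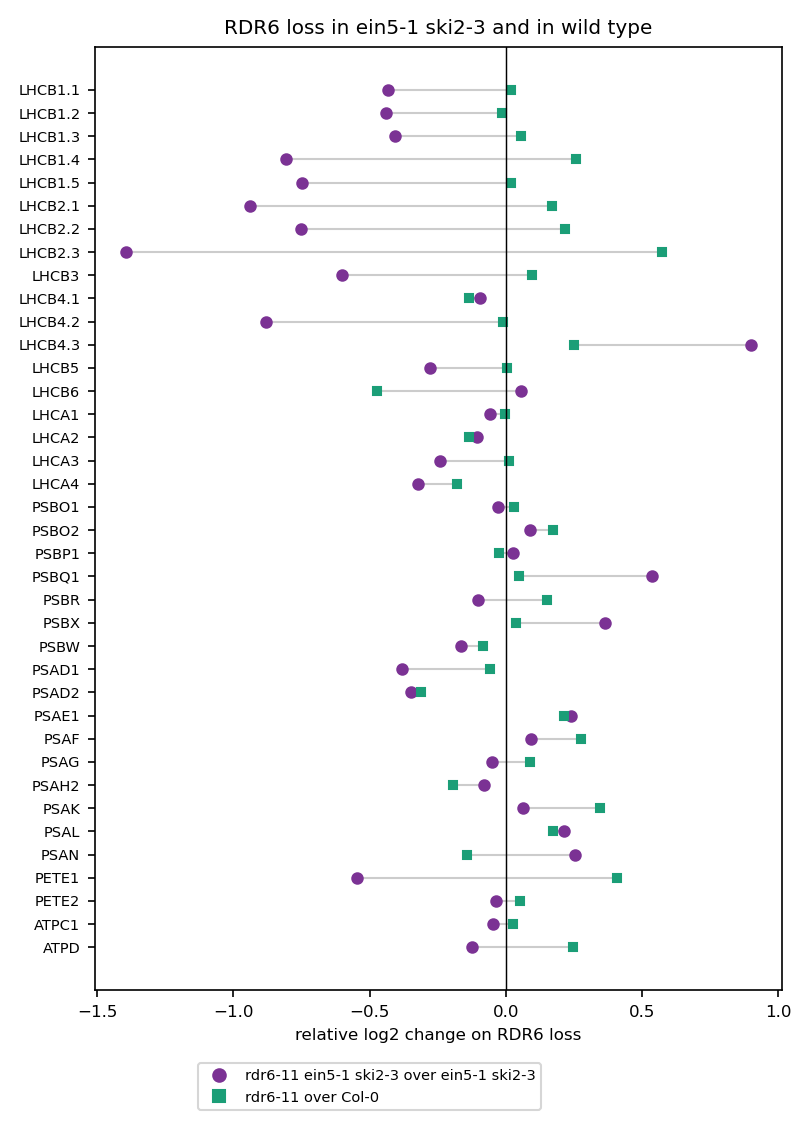
Relative log2 change on loss of RDR6 (horizontal axis) for 38 genes in rdr6-11 ein5-1 ski2-3 over ein5-1 ski2-3 (circles) and in rdr6-11 over Col-0 (squares); grey lines join the 2 values of a gene. For the 8 LHCB1 and LHCB2 genes the circles lie between -1.39 and -0.41, all left of their squares. The gap between circle and square is the relative interaction, with a median of -1.64 over all genes tested.

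Features that did not enter the choice of genes were set beside the double mutant's relative change. The 5 LHCB1 genes have a single exon and the 3 LHCB2 genes have 2. The other 8 tested genes with 1 exon, namely PSBX, PSAD1, PSAD2, PSAG, PETE1, PETE2, ATPC1 and ATPD, had a median relative change of 0.15, against 0.66 for LHCB1, and the other 7 with 2 exons had 0.01, against 1.65 for LHCB2. Coding GC content was 48.6% to 57% in the family and 43.9% to 56.5% in the other 30, and spliced length was 1045 to 1465 bases in the family and 702 to 1521 bases in the others, so both ranges overlapped. Annotated genes that overlap a member had at most 18 counts in a library.

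The authors' deposited table compares the double mutant with Col-0 and with the triple mutant on its own scaling. Of 38 members with an adjusted p there, 24 were lower and none higher in the double mutant against Col-0, where the authors' deposited table has 4.65% of its 28649 genes with an adjusted p higher and 3.41% lower. That is more genes than the 7219 that passed the filter used here. In the authors' deposited table the fold of the double mutant over Col-0 was 1.89 for LHCB2.3, 1.57 for LHCB2.1, 1.47 for LHCB2.2 and 1.23 for LHCB1.4, with adjusted p of 0.353, 0.142, 0.178 and 0.389. For LHCB1.3 the authors' deposited table gave a fold of 0.705 (adjusted p 0.000972) and for PSBQ1 0.352 (adjusted p 2.5e-09). In the double mutant over the triple mutant, 18 of 39 members were lower in the authors' deposited table and none higher, against 3.08% of its genes higher and 1.96% lower.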

How the data were processed

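Small RNA below 200 nt from 12 libraries was analysed as deposited. The authors' table gives raw counts per gene, and the authors also deposited a fold (a linear ratio) and p-values for their own comparisons. Both are per the file headers. Bowtie, Bowtie2, DESeq, CASAVA 1.8.2 and the TAIR10 build are listed by the submitters' processing notes; the handling of multiple matches and strand is not given in the sources used here, so overlapping and antisense genes cannot be told apart.

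Counts were tested with edgeR 4.0.16 in R 4.3.3: genes passing filterByExpr (minimum count 10, minimum total 15; 7219 genes), TMM normalisation, 1 quasi-likelihood fit over all 4 genotypes, and Benjamini-Hochberg adjusted p under 0.05. Replicates 1 and 2 of ein5-1 ski2-3 were summed. DESeq2 1.42.0 was an alternative, among 25 tried. The scaling to 22 photosynthesis genes was added after the data were seen. Sequences were aligned with MAFFT 7.526. Same-numbered libraries did not deviate together (0 of 18 pairs over 0.1, correlations -0.125 to 0.0435), so no pairing was used.

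The members and gene lists were chosen with earlier results of these data known. Full statistics are given per comparison for up to 5 called genes in each direction with the largest change and for every gene called against the majority. One count was worth 0.273 to 0.556 CPM, and 3 counts are taken as the floor; both cover counting error only.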

Additional observations from a re-analysis of the deposited data

Results flagged for a closer look

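The results below were picked out because the effect of losing RDR6 differed between ein5-1 ski2-3 and wild type by the test of the interaction itself (edgeR quasi-likelihood, Benjamini-Hochberg adjusted over 7219 genes, TMM scale, n = 2 or 3 samples per genotype). A positive value means a larger log2 change on loss of RDR6 in the ein5-1 ski2-3 background than in wild type.

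Among photosystem II antenna genes the interaction was 0.88 for LHCB1.1, 0.91 for LHCB1.2, 0.87 for LHCB1.3 and 0.56 for LHCB1.5. It was 0.65 for LHCB3, 1.38 for LHCB4.1, 1.97 for LHCB4.3, 1.06 for LHCB5 and 1.86 for LHCB6. For LHCB1.1, LHCB1.2, LHCB1.3, LHCB1.5 and LHCB3 the interaction was called in the negative direction on the relative scale. Among photosystem I antenna genes it was 1.29 for LHCA1, 1.37 for LHCA2, 1.09 for LHCA3 and 1.2 for LHCA4.

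Among photosystem II subunits the interaction was 1.29 for PSBO1, 1.26 for PSBO2, 1.39 for PSBP1, 1.83 for PSBQ1, 1.09 for PSBR, 1.67 for PSBX and 1.26 for PSBW. Among photosystem I subunits it was 1.02 for PSAD1, 1.31 for PSAD2, 1.37 for PSAE1, 1.17 for PSAF and 1.21 for PSAG. It was 1.46 for PSAH2, 1.06 for PSAK, 1.38 for PSAL and 1.74 for PSAN. PETE2 had 1.26, ATPC1 had 1.27 and ATPD had 0.97. None of the genes in this paragraph was called in either direction on the relative scale. The leaf genes RBCS1A, RCA and CA1 had interactions of 1.48 to 1.76 on the TMM scale, and their part in these values was not tested.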

How the results depend on the processing

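Scaling moved these results most. Scaled to total counts, the double mutant against Col-0 had 12 genes higher and 4 lower, rdr6-11 against Col-0 had 2 lower, the triple against the double mutant had 4 higher and 6 lower, the triple mutant against Col-0 had 9 higher and 0 lower, and the interaction had 8 higher and 2 lower. Scaled to MIR genes, 12 genes were lower in the double mutant against Col-0 (44.8% of all genes higher and 7.54% lower), 0 lower in the triple against the double mutant, 38 higher in the triple mutant against rdr6-11, and 17 higher and 0 lower in the triple mutant against Col-0. Of all genes, MIR scaling called 75.1% higher and 0.222% lower in the triple mutant against rdr6-11, and 34.9% higher and 1.66% lower in the triple mutant against Col-0. With TMM from protein-coding genes, 18 were lower in rdr6-11 against Col-0, 3 higher in the triple mutant against rdr6-11, and 0 higher and 14 lower in the triple mutant against Col-0. Of all genes, 27.3% were then higher and 9.14% lower in rdr6-11 against Col-0. In the triple mutant against rdr6-11 these shares were 6.8% and 38.2%. Without rRNA, tRNA and organelle genes, 2 were higher in the double mutant against Col-0, 0 lower in the triple against the double mutant, and 0 higher and 10 lower in the triple mutant against Col-0. Of all genes, 26.9% were then higher and 18.4% lower in the double mutant against Col-0. In the triple against the double mutant these shares were 13.8% and 26.6%. With RLE size factors, the triple against the double mutant had 0 lower and the triple mutant against Col-0 had 5 lower. Of all genes, 17.9% were then higher and 21.4% lower in the triple against the double mutant.

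With DESeq2, 0 were higher in the double mutant against Col-0, 0 lower in the triple against the double mutant and 0 higher in the triple mutant against Col-0. Of all genes with an adjusted p, DESeq2 called 17.1% higher and 16.3% lower in the double mutant against Col-0. In the triple against the double mutant these shares were 10.6% and 10.5%. Without a filter on low counts, 19 were lower in rdr6-11 against Col-0, 0 lower in the triple against the double mutant, 12 higher in the triple mutant against rdr6-11, and 0 higher and 1 lower in the triple mutant against Col-0. Of the 29938 genes then tested, 5.09% were higher and 2.44% lower in rdr6-11 against Col-0. In the triple against the double mutant these shares were 2.32% and 6.78%. Against Col-0 the triple mutant had 5 lower with a filter blind to groups and with the 12 libraries entered separately, 3 higher with only the groups compared, and 2 higher with near-identical copies summed. With only the groups compared, 0 were higher in the double mutant against Col-0 and 0 lower in the triple against the double mutant. Of all genes, 25% were then higher and 26.6% lower in the double mutant against Col-0. Without replicates 1 and 2 of the double mutant, 0 were higher in the double mutant against Col-0, 0 lower in the triple against the double mutant and 6 lower in the triple mutant against Col-0. On the relative scale that fit gave 2 lower in the double mutant against Col-0, 1 lower in rdr6-11 and an interaction higher for 1, and leaving out its replicate 3 gave 1 lower in rdr6-11. With the replicate block, the triple mutant against Col-0 had 5 lower, and no other count moved by over 1.5 times. Where no share of all genes is given here or above, a count cannot separate the members from the whole table.

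Leaving out 1 library at a time gave 0 to 4 higher and 25 to 31 lower in the double mutant against Col-0, 25 to 29 lower in rdr6-11 against Col-0, 22 to 29 higher and 0 to 1 lower in the triple against the double mutant, 16 to 21 higher in the triple mutant against rdr6-11, 0 to 1 higher and 2 to 6 lower in the triple mutant against Col-0, and 30 to 33 positive interactions.

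Among genes called on the TMM scale, log2 changes turned direction as follows. Scaled to total counts, the double mutant against Col-0 gave 0.50 for LHCB1.1, 0.48 for LHCB1.2, 0.37 for LHCB1.3, 0.077 for LHCB5, 0.021 for LHCA2, 0.24 for LHCA3, 0.030 for PSAD2 and 0.032 for ATPD; rdr6-11 against Col-0 gave 0.084 for LHCB1.4 and 0.0020 for PSAL; the triple against the double mutant gave -0.16 for LHCB1.1, -0.17 for LHCB1.2, -0.14 for LHCB1.3 and -0.0062 for LHCB5; and the interaction gave -0.011 for LHCB1.1, -0.019 for LHCB1.3, -0.33 for LHCB1.5 and -0.26 for LHCB3. Scaled to MIR genes, the double mutant against Col-0 gave 0.19 for LHCB1.1, 0.17 for LHCB1.2 and 0.061 for LHCB1.3, and the triple mutant against Col-0 gave 0.091 for PSBP1, 0.11 for PSBW and 0.25 for PETE2. With TMM from protein-coding genes, the triple mutant against rdr6-11 gave -0.011 for LHCB4.1, -0.11 for LHCB5, -0.11 for PSBO1, -0.038 for PSBQ1, -0.0047 for PSBX and -0.029 for ATPC1. Genes not called on the TMM scale turned too, and with total counts these then passed: LHCB3 (0.61), LHCA4 (0.53) and PSAD1 (0.43) in the double mutant against Col-0, LHCB1.1 (0.34), LHCB1.2 (0.31) and LHCB1.3 (0.23) in the triple mutant against Col-0, and LHCB1.4 (-0.62) in the interaction. The causes were not tested. LHCB2.3, LHCB4.3 and LHCB7 are limited by depth.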
